A study of Mus musculus with 265 samples.

Results

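Untreated mouse pre-B cells of an inducible line were profiled by single-cell ATAC-seq, and all 95 0-hour cells among the 227 cells of the data matrix are described here. They were chosen by their time-point label alone, 48 from C1 run 1 and 47 from C1 run 2. The cells were ERt2-Ikaros B3 cells, a cultured pre-B line in which the transcription factor Ikaros is fused to a ligand-binding domain that tamoxifen releases into the nucleus. They were grown in IMDM medium with 10% FBS and carried the fusion protein but received no 4-hydroxytamoxifen, so every value concerns the state before induction in 1 cell line. Cells were captured on the Fluidigm C1, a microfluidic device in which Tn5 transposase cuts and tags the open DNA of each captured cell, and each cell was scored in peaks of bulk samples of both time-points. In the matrix every region has a count in at least 5 of the 227 cells, those after induction included. The sources do not say whether both runs came from separate cultures, and the spread between runs may therefore be technical. The labels list 48 and 63 cells for these runs. The time-point that followed induction is not compared here.

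Pre-B cells have rearranged the immunoglobulin heavy chain and carry it on the surface with a surrogate light chain, made from Igll1 and Vpreb1 or Vpreb2, together with the signalling chains Cd79a and Cd79b. The factors Ebf1 and Pax5 hold the B-lineage programme, Ikaros (Ikzf1) limits proliferation at this stage, and Myc drives growth downstream of the interleukin-7 receptor. ATAC-seq reads mark DNA that is not wrapped by nucleosomes, mostly promoters and enhancers. In a diploid cell a region has very few copies to cut, so most open regions are missed in most cells.

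Sequences of the regions that the description of the pre-B genes turns on are printed in mm10 coordinates and on the strand of the gene, without bases in UTR exons. The start given for a region was read as its first base, which the sources do not state, so a region may be shifted by 1 base. Capitals mark, on either strand, matches to the Ikaros core GGGAA, the ETS letters CCGGAA and the further ETS letters GAGGAA, the E-box letters CAGCTG and the further E-box letters CAGGTG, the EBF1 letters TCCCNNGGG, the RUNX letters TGTGGT, the CCAAT box, the GC box letters GGGCGG and the AP-1 letters TGANTCA. A match to the letters is a description and no measure of binding. TCCCNNGGG and the reverse of GGGAA share the letters TCCC.
Igll1, chr16:16864098-16864223, minus strand: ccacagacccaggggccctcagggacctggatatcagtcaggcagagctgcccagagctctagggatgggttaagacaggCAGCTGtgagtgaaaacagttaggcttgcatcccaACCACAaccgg
Igll1, chr16:16865355-16865480, minus strand: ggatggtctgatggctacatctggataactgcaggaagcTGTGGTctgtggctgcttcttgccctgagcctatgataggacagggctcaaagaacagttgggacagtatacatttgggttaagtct
Vpreb2, chr16:17980300-17980418, plus strand: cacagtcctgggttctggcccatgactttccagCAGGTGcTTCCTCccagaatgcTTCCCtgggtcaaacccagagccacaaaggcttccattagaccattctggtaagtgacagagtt
Cd79b, chr11:106314530-106314660, minus strand: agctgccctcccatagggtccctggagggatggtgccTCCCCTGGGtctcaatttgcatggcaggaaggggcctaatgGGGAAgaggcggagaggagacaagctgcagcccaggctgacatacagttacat
Pax5, chr4:44704498-44704649, minus strand: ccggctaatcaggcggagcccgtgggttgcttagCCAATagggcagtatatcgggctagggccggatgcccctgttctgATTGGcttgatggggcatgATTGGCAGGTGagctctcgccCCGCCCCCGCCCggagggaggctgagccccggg
Pax5, chr4:44709186-44709305, minus strand: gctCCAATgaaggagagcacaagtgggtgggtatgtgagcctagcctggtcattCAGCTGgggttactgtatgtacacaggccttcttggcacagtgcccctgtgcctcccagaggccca
Ebf1, chr11:44617141-44617286, plus strand: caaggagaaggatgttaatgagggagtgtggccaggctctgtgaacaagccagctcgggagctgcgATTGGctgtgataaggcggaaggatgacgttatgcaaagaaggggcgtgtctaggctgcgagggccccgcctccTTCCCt
Dntt, chr19:41039257-41039387, plus strand: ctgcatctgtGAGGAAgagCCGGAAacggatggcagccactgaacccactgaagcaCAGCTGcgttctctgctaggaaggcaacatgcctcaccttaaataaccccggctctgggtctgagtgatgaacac
Myc, chr15:61985014-61985201, plus strand: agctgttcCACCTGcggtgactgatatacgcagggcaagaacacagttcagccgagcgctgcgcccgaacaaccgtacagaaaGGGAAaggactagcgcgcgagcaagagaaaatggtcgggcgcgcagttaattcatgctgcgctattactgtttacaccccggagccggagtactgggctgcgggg
Both Igll1 regions hold RUNX letters and the first also an E-box, the Cd79b region holds an EBF1 match, and the first Pax5 region, which lies within the gene, holds 3 CCAAT boxes and 2 GC boxes. The region of Dntt, the polymerase that adds untemplated bases at V(D)J joints, holds both ETS cores and an E-box.

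Run 1 held more signal than run 2. A count is the matrix value of a region in a cell, which is 0, 1 or 2. Cells of run 1 held from 936 to 7820 counts (median 2898) and cells of run 2 from 395 to 4277 (median 1787). The coefficient of variation over cells was 0.565 in run 1 and 0.45 in run 2. Regions detected, that is regions with a value above 0, numbered from 613 to 5020 per cell in run 1 (median 1888.5) and from 240 to 2883 in run 2 (median 1146). Of all values, 89% in run 1 and 93.5% in run 2 were 0. Among detected values, 54.3% in run 1 and 50.9% in run 2 were 2. After every cell was thinned to 1208 counts, which left out 2 cells of run 1 and 8 of run 2, the medians came to 1035 and 942 regions per cell, against the unthinned 1888.5 and 1146. Thinning turns more values of 2 into 1 in deeper cells, so equal counts do not equalise the regions detected.

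**Figure D1:**
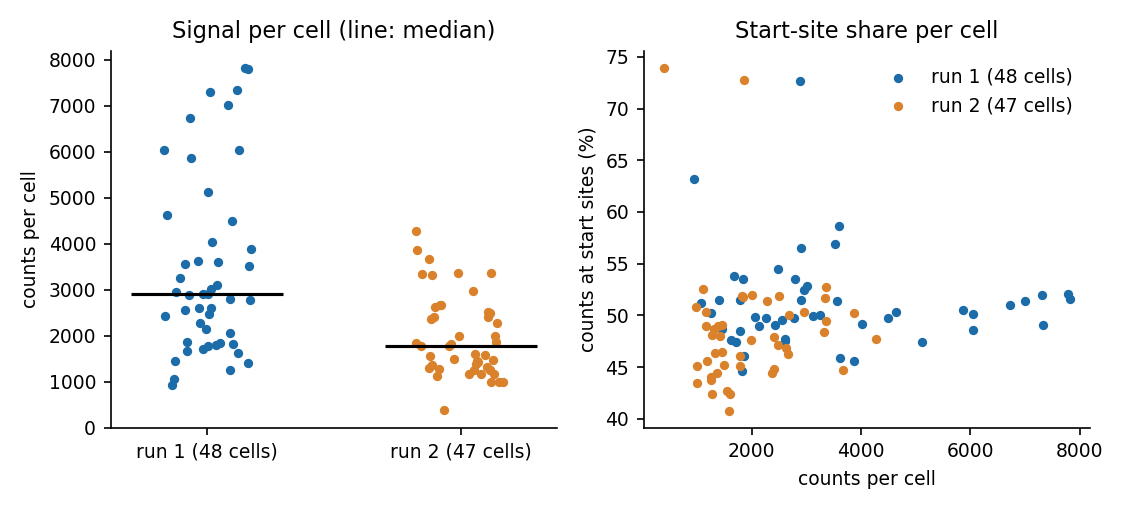
Counts per cell in both 0-hour runs, with the median as a line, and the percent of a cell's counts in regions at start sites against its counts; each point is 1 cell. The medians are 2898 and 1787 counts, and 3 cells lie above 70% at start sites, 1 in run 1 and 2 in run 2.

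The 20103 regions are short (median 141 bp), and 8786 of them (43.7%) have their midpoint within 1 kb of a protein-coding start site. A further 5.32% lie in exons, 24.4% in introns and 26.6% between genes. Start-site regions held 51% of the counts of run 1 and 48.5% of those of run 2. The share of cells in which a region was detected serves as its level throughout, and its 95% Clopper-Pearson interval covers counting error only. A single cell is worth 2.08% in run 1 and 2.13% in run 2. A region with no count in a run may still be detectable in up to 6.25% of cells in run 1 and 6.38% in run 2, the share that 3 counts give. This lies below the upper end of the 2-sided interval of a share of 0, 7.4% and 7.55%, and it limits detection and not how many cells have the region open. The median region was detected in 8.33% of the cells of run 1 and 4.26% of those of run 2. In all, 17335 regions were detected in both runs, and 129 in neither. The shares of both runs correlated over regions with Pearson's r = 0.647 and Spearman's rho = 0.51. These are correlations over regions, which are not independent replicates and share library and depth.

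Few regions were detected in a large part of the cells. With 10% of cells in each run as the least share there were 3671 regions, with 25% there were 179, and with 50% there were 20. The count of 179 rests on run 2, since 1444 regions reached 25% in run 1 alone and 233 in run 2 alone. None of the 20 regions at 50% was a region with 1 copy in the genome and no match to mitochondrial DNA. Of these, 16 had more than 1 copy and 13 matched the mitochondrial genome. The highest were repeats at Gm21738 on chromosome 14, of which the region from 19418106 to 19418256 has 166 near-identical copies and was detected in all cells of both runs. Reads from any copy can be counted there, so these shares say nothing about 1 locus. The levels by distance, width, GC content and motif, the stretches along chromosomes and the co-detections below are therefore given for the 19285 regions with 1 copy and no mitochondrial match, while the values by gene and by gene list use all regions assigned to a gene. In this set 3510 regions reached 10% in both runs and 145 reached 25%, of which 102 (70.3%) lay at start sites.

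Start sites were detected in more cells than other regions in each run. Within 100 bp of a start site the mean share was 13.4% in run 1 and 7.41% in run 2, over 5004 regions. From 100 to 250 bp it was 13.9% and 7.91%, and from 250 bp to 1 kb it was 11.2% and 6.34%. Between 1 and 10 kb it was 9.78% and 5.66%, and beyond 50 kb it was 9.31% and 5.87%. The level thus dropped within the first kilobases and differed little further out. Wider regions were also seen more often, with a mean share of 7.63% and 4.48% in the narrowest of 5 width bins and 14.5% and 8.33% in the widest. Among the narrowest regions, start sites (8.25% and 4.48%) and other regions (7.35% and 4.48%) lay close together. Among the widest, start sites stood at 15.2% and 8.62% and other regions at 13.1% and 7.85%. By GC content in 5 bins, regions with 61.5 to 68.8% GC had the highest mean share in both runs, 13.1% and 7.47%, and those of the lowest bin, up to 50% GC, had 8.63% and 5.75%.

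By the lower of both run shares, Sap130, a subunit of the Sin3 corepressor complex, came first with a region 666 bp downstream of its start site, detected in 56.2% of the cells of run 1 and 46.8% of run 2. Its region 87 bp upstream was also among the first 10, at 37.5% and 42.6%. E2f3, a transcription factor of the cell cycle, stood at 45.8% and 40.4%. Hmgcs1, an enzyme of cholesterol synthesis, had the highest share of run 1 among the first 10, 58.3%, with 38.3% in run 2. Hsd17b12, an enzyme of fatty acid elongation, was detected in 41.7% and 38.3% of cells. Kbtbd3, 1700056E22Rik, Cep57 (a centrosomal protein) and Dnpep (an aminopeptidase) were also among the first 10, which ranged from 37.5 to 58.3% in run 1 and from 36.2 to 46.8% in run 2. The counting intervals of these regions overlap, and their order is not resolved. The sequences of 2 of them, and of the region near Zfp869 described next, are given with the same capitals.
E2f3, chr13:29986195-29986344, minus strand: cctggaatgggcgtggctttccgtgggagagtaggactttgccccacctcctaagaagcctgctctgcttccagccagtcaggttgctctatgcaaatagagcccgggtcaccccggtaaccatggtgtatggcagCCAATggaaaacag
Hmgcs1, chr13:119690085-119690216, plus strand: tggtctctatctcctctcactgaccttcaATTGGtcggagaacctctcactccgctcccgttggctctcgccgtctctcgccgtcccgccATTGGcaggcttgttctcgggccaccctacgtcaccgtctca
Zfp869, chr8:69717006-69717198, minus strand: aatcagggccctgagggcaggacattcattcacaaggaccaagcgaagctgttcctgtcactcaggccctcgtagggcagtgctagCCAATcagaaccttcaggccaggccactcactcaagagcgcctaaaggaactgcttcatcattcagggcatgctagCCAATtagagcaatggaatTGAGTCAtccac
CCAAT boxes occur in all 3, with 2 matches at Hmgcs1, 1 at E2f3 and 2 at the region near Zfp869. They were chosen for print after their matches were known, and a CCAAT box is present in 30.7% of all start-site regions and 15.7% of the others. The regions of Pde4d and Glrx, which are also among the leading ones away from start sites, hold none, and neither do the 117 bases searched of the start-site region of Kbtbd3.

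Of the first 10 regions with 1 copy that lie over 1 kb from a start site, 8 matched the mitochondrial genome, with shares up to 77.1% in run 1 and 80.9% in run 2. The other 2 were an intergenic region 6378 bp upstream of Zfp869 (45.8% and 40.4%) and an intronic region of Pde4d, which encodes a cAMP phosphodiesterase (35.4% and 40.4%). The regions that come next without mitochondrial matches were chosen after their values were seen. They lay closest to Glrx, Rbl2, Smim15, Ppp2r5a, Ppm1b, Lax1, Ell2 and Pacs2, and the 10 regions together ranged from 31.2 to 54.2% in run 1 and from 29.8 to 40.4% in run 2. Lax1, an adaptor that restrains antigen receptor signalling in lymphocytes, had its region 4879 bp upstream at 31.2% and 38.3%. Of these 10 regions, 4 lay on chromosome 13.

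By the number of regions detected in at least 10% of cells in both runs, Gm21738 and Tex14 led with 6 each. Those of Gm21738 all had more than 1 copy, and 3 of those of Tex14 did. Ell2, Gfra2, Gm47283, Lbr, Mrps23, Nfe2l2, Rassf2 and Zbtb18 had 4 each. Ell2, an elongation factor of RNA polymerase II, ranged from the region 657 bp downstream of its start site (43.8% and 25.5%) to an intronic one at 16.7% and 10.6%. Zbtb18, a transcriptional repressor, had its start-site region at 25% and 27.7% and an intergenic region 24961 bp downstream at 35.4% and 23.4%. Nfe2l2, the regulator of the oxidative stress response, had its start-site region at 39.6% and 23.4%. All 4 regions of Gm47283, which lies on chromosome Y, had 2 copies.

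All 7 pre-B marker genes had regions, 33 in all, and 9 of these were at start sites. Shares ranged from 0 to 25% in run 1 and from 0 to 21.3% in run 2. Of the 33 regions, 23 had a higher share in run 1, the deeper run, beside 71.4% of all regions. Of the 33 regions, 5 reached 10% in both runs, beside 18.2% of all regions with 1 copy.

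Igll1, the lambda5 part of the surrogate light chain, had its most detected region 175 bp upstream of the start site. It was seen in 12 of 48 cells of run 1 (25%, interval 13.6 to 39.6%) and in 7 of 47 cells of run 2 (14.9%, interval 6.2 to 28.3%). The region 1432 bp upstream was also seen in 12 cells of run 1 and in 5 of run 2 (10.6%). A region 8958 bp downstream reached 8.33% and 2.13%. Both upstream regions were detected together in 3 cells of run 1, where 3.91 were expected from their shares and the depth of each cell, and in 0 cells of run 2, where 0.894 was expected. At this depth these few cells do not resolve whether both regions were open together.

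Vpreb1, which makes the other part of the surrogate light chain, had 1 region, 33 bp downstream of its start site, seen in 4 cells of each run (8.33% and 8.51%). The start-site region of Vpreb2 was seen in 7 cells of run 1 (14.6%) and 3 of run 2 (6.38%). It has 2 near-identical copies in the genome, so its counts may come from either.

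Pax5, the factor that commits cells to the B lineage, had 9 regions and the most detected marker region by the lower run. This region lay 5914 bp downstream of the start site, in an intron, and was seen in 10 cells of each run (20.8%, interval 10.5 to 35%, and 21.3%, interval 10.7 to 35.7%). Its lower share ranked at percentile 97.9 of all regions. A single start site was used per gene, so a region at the start of another transcript would also be called intronic here. The intronic region 1242 bp downstream was seen in 22.9% and 10.6% of cells. The start-site region 446 bp upstream stood at 12.5% and 6.38%, with counting intervals that overlap those of the intronic regions. The region 3808 bp upstream was seen in no cell of either run, which over 95 cells allows a share of up to 3.16%. Both intronic regions 5121 and 5914 bp downstream were detected together in 6 cells of run 1 with 2.44 expected, and in 1 cell of run 2 with 0.766 expected. This was the largest excess in run 1 among 10 pairs of Pax5 regions, of which 6 lay above and 4 below the expected number in that run, and 8 above and 2 below in run 2. The pair 1242 and 4318 bp downstream had 0 cells with 2.39 expected in run 1 and 1 cell with 0.383 expected in run 2.

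Ebf1, the factor that acts upstream of Pax5, had a start-site region 104 bp upstream at 16.7% and 8.51%, the highest of its regions in run 1. In run 2 its highest was an intronic region 7506 bp downstream, at 10.6% beside 4.17% in run 1, and the intervals of these regions overlap. Myc had a region 284 bp upstream of its start site at 14.6% and 12.8%. The Myc region 85 bp downstream stood at 16.7% and 4.26%, and the exonic one 1676 bp downstream at 14.6% in run 1 with 0 of 47 cells in run 2.

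Ikzf1, the gene of endogenous Ikaros, had no region above 4.26% in run 2, the lowest maximum of the 7 markers in that run. None of its 7 analysed regions lay within 1 kb of its start site. The highest by run 1, 28545 bp upstream, was seen in 6 cells of run 1 (12.5%, interval 4.73 to 25.2%) and in 0 of 47 cells of run 2. The intronic region 6908 bp downstream stood at 8.33% and 2.13%. No region of Ikzf1 reached 10% in both runs.

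**Figure D2:**
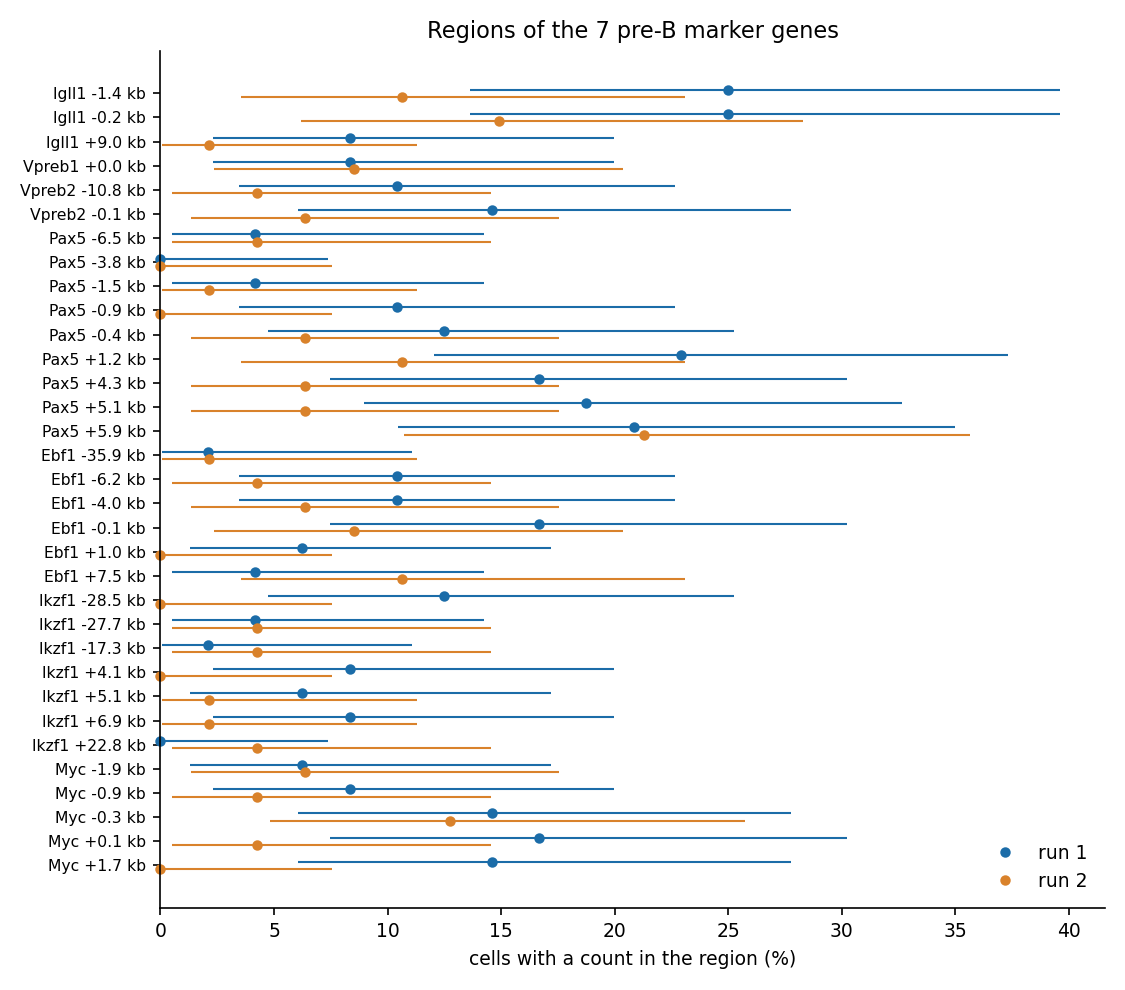
Share of cells (x axis, percent) with a count in each of the 33 regions assigned to the 7 marker genes, named by gene and distance to the start site; points are the shares of run 1 and run 2 and lines their 95% Clopper-Pearson intervals, which cover counting error only. The intervals of the 2 runs overlap for all 33 regions, and the Pax5 region at +5.9 kb stands at 20.8% and 21.3%.

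Counted per cell, a region of Pax5 was seen in 33 cells of run 1 (68.8%) and 19 of run 2 (40.4%), the most of the 7 genes. Igll1 followed in run 1 with 22 cells, and in run 2 Igll1 and Ebf1 followed with 13 cells each. Genes with more regions have more chances to be seen, and these counts do not compare levels between genes. A cell of run 1 showed regions of a median of 3 of the 7 genes, from 0 to 5, and a cell of run 2 of a median of 2, from 0 to 4. There were 4 cells in run 1 and 9 in run 2 with none. The number of marker genes seen rose with the regions detected per cell (Pearson's r = 0.721 in run 1 over 48 cells and 0.516 in run 2 over 47). Cells with at most 1 marker gene had a median of 1227 detected regions in run 1 and 912 in run 2, and cells with 4 or more had 3618 and 1649. The number of markers seen in a cell thus moved with its depth, and cells with none do not speak against the label at this depth.

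Of all 21924 protein-coding genes, 9894 (45.1%) had a region within 50 kb for which they were the closest start site. Every list of genes of the pre-B state was represented above that share, and so were the housekeeping families, with 81% of cytosolic ribosomal protein genes, 76.1% of splicing factors, 76% of genes of oxidative phosphorylation and 74.4% of mitochondrial ribosomal protein genes. Regions were present for 15 of 16 genes of the pre-B cell receptor and its signalling, 21 of 24 B-lineage transcription factors and 18 of 20 genes of interleukin-7 signalling and proliferation. Of the genes of V(D)J recombination 9 of 14 had a region, and of those of DNA replication 28 of 37, or 64.3% and 75.7%, which is below or near the housekeeping families. Lists of other cell types were represented less, with 12 of 24 genes of later B-cell stages, 8 of 18 T cell genes, 4 of 14 erythroid and megakaryocyte genes, 3 of 16 myeloid genes, 2 of 10 stem and progenitor genes and 1 of 9 NK cell genes. Of 18 genes that mark cells outside the blood, 1 had a region, and of 1092 olfactory receptor genes 15 did. Regions were called on bulk samples of both time-points together, so the presence of a region is not a feature of the 0-hour cells alone.

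**Figure D3:**
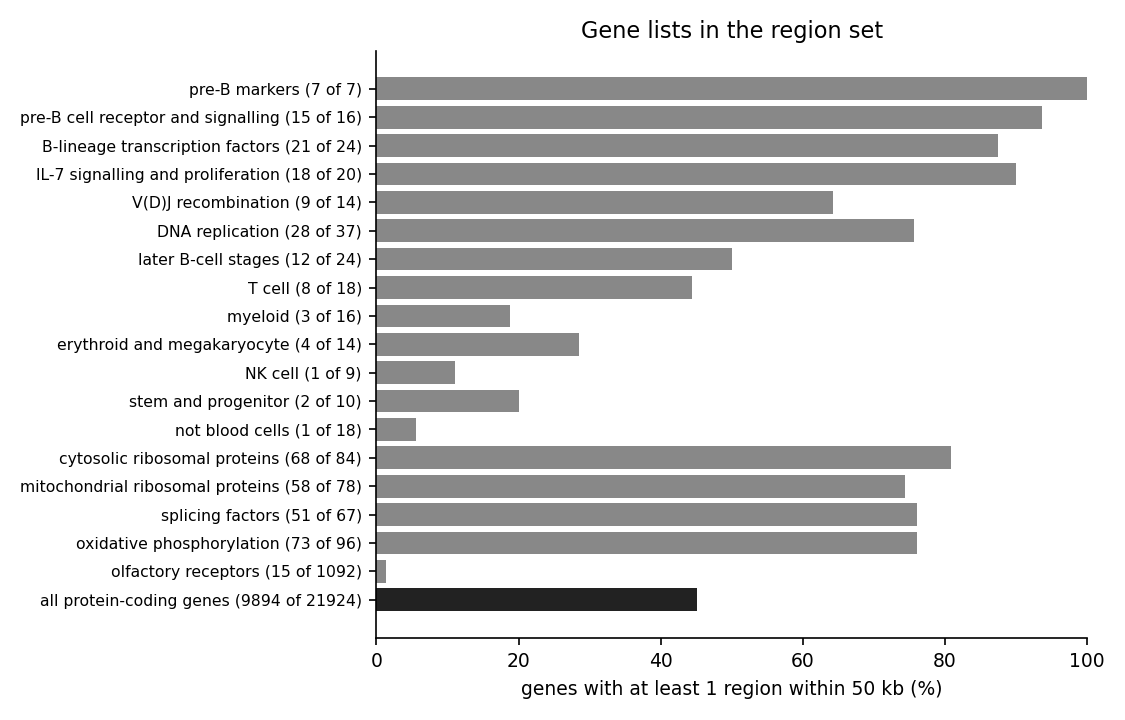
Percent of the genes of each list (bars, x axis) that have at least 1 region assigned within 50 kb, with the number of genes in brackets; the black bar gives all protein-coding genes, at 45.1%. The lists of the pre-B state lie from 64.3 to 100% and those of other blood cells from 11.1 to 50%.

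Where a gene had a region, most lists with at least 7 such genes lay near the level of all genes. The share of the most detected region per gene, chosen by the lower run, had a median over all genes of 12.5% in run 1 and 6.38% in run 2. It was 14.6% and 8.51% for the 7 markers, 14.6% and 10.6% for the pre-B cell receptor list, and 14.6% and 8.51% for V(D)J recombination. For B-lineage transcription factors it was 12.5% and 6.38%, the same as over all genes. For later B-cell stages it was 9.38% and 4.26%, and for T cell genes 12.5% and 6.38%. Lists with fewer genes lay further apart, from 2.08% and 2.13% for the 1 gene outside the blood to 29.2% and 19.1% for the 1 NK cell gene, with 4.17% and 6.38% over 3 myeloid genes, where the run 2 value is that of Lyz2, whose region has 3 copies, 9.38% and 3.19% over 4 erythroid and megakaryocyte genes and 8.33% and 4.26% over 2 stem and progenitor genes. A difference of 2.08 percentage points in run 1 is 1 cell, so most of these medians lie within a few cells of each other. The number of regions per gene also differed between lists, with 33 regions for the 7 markers and 82 for 21 B-lineage transcription factors. Neither these medians nor the shares of genes at 10% below compare lists at equal numbers of regions.

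In the pre-B cell receptor list, 7 of 15 genes (46.7%) had a region at 10% or more in both runs, beside 29% of all genes with a region. These 15 genes had 54 regions, while all 9894 genes with a region had 16759. Genes with more regions have more chances to reach this level. Pik3r1, the regulatory subunit of phosphoinositide 3-kinase, led with its start site at 16.7% and 19.1%. Cd79b, a signalling chain of the receptor, stood at 18.8% and 14.9% at its start site, and Cd79a, its partner, at 25% and 10.6%. Plcg2, the phospholipase downstream of the receptor, had an intronic region at 25% and 14.9%. Of the kinases, Lyn had a region 28883 bp upstream at 14.6% and 17% and Syk one 10541 bp upstream at 18.8% and 12.8%.

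Among B-lineage transcription factors, 5 of 21 genes (23.8%) reached 10% in both runs, fewer than the 29% over all genes with a region. Beside Pax5 these were Lef1 (14.6% and 12.8% in an intron), Sox4 (12.5% and 14.9%), Spi1 (16.7% and 10.6% at its start site) and Myb (10.4% and 17% at 25893 bp upstream). Lef1 and Sox4 act in early B-lineage cells, Spi1 encodes PU.1, and Myb is needed for B-cell progenitors. Of the interleukin-7 list 5 of 18 genes (27.8%) reached 10% in both runs. Jak1, the kinase bound to the receptor, stood highest at 31.2% and 19.1%. Max, the partner of Myc, followed at 18.8% and 17%, and Socs2, a feedback inhibitor of cytokine signalling, at 16.7% and 14.9%.

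In the V(D)J recombination list the start site of Xrcc4, a DNA end-joining factor, was the most detected region, at 43.8% (interval 29.5 to 58.8%) and 34% (interval 20.9 to 49.3%). Hmgb2, a DNA-bending cofactor of the recombinase, stood at 25% and 21.3%. Dntt had its intronic region, 10047 bp downstream of the start site, at 20.8% and 17%, and Trp53bp1, a DNA break response protein, stood at 14.6% and 14.9%. Of the DNA replication genes 8 of 28 (28.6%) reached 10% in both runs, each by its start site, near the 29% over all genes with a region. Gins2 led at 25% and 25.5%, followed by Rfc3 (18.8% and 23.4%), Gins4 (18.8% and 21.3%) and Mcm5 (22.9% and 17%), which are parts of the replicative helicase or clamp loader.

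Housekeeping families lay near the level of all genes. Cytosolic ribosomal protein genes had medians of 12.5% and 6.38% over 68 genes, led by Rpl37 (25% and 19.1%), Rps15, Rpl10 and Rps3a1. Mitochondrial ribosomal protein genes had 10.4% and 6.38% over 58 genes, led by Mrpl18 (41.7% and 25.5%), Mrps16, Mrpl17 and Mrps36. Splicing factors had 14.6% and 6.38% over 51 genes, with Sf3b6, Hnrnpk and Snrpa among the leading ones. Genes of oxidative phosphorylation had 12.5% and 6.38% over 73 genes, led by Cox7c, Ndufaf2, Atp5g1 and Cox8a. The region of Rps15 lay 10337 bp upstream of its start site in an intron, and that of Hnrnpk 40652 bp upstream between genes. Both were assigned by distance alone. The 15 olfactory receptor genes with a region had 4.17% and 4.26%, and 2 of them, Olfr9 and Olfr1423, had an intergenic region at 10% or more in both runs.

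Some genes that mark other cells had a region at 10% or more in both runs. Cd69, an activation marker of lymphocytes, had a region 9122 bp upstream at 29.2% and 25.5%. Xbp1, a factor needed by plasma cells and used more widely, stood at 14.6% and 10.6% at its start site. Klrb1c, the NK1.1 antigen, had a region 24955 bp downstream at 29.2% and 19.1%, and was the only NK gene of 9 with a region. Of the T cell list 3 of 8 genes with a region (37.5%) reached this level, beside 29% of all genes with a region. Cd28 had a region at 20.8% and 14.9%, Il2ra at 16.7% and 10.6% and Lat at 12.5% and 10.6%. Il2ra encodes CD25, which pre-B cells also carry. Tal1, a factor of stem and erythroid cells, stood at 10.4% and 10.6% in an exon. Other members were lower, such as the myeloid gene Adgre1 at 18.8% and 8.51%, the stem cell genes Flt3 and Cd34 at 8.33% and 4.26% each, and Nanog at 2.08% and 2.13%. Most of these regions lie outside the genes and were assigned by distance, so which gene they act on was not tested.

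Regions at the immunoglobulin loci were examined after their values were seen. At the kappa light chain locus chr6:68481258-68481404 was detected in 20.8% and 14.9% of cells and chr6:68884251-68884401 in 20.8% and 10.6%. The highest of the heavy chain locus in run 1, chr12:113321143-113321292 on the constant region side, was detected in 18 cells of run 1 (37.5%) and 3 of run 2 (6.38%). The regions chr12:113220538-113220797 and chr12:113222802-113222996 stood at 22.9% and 6.38% and at 20.8% and 2.13%. Toward the J segments, chr12:113427406-113427556 was detected in 12.5% and 8.51% of cells. The first 3 of the heavy chain locus were higher in run 1, the deeper run, and the part of depth in this was not tested.

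Sequence features moved with the level of start sites. The 150 bp around the midpoint held a CCAAT box in 30.7% of start-site regions, in 52.7% of those at 10% or more in both runs (2086 regions) and in 23.5% of those below. Regions at 10% or more had a lower GC content (median 63.9% against 66.5%) and a larger width (150 against 145 bp). In each of 5 bins of GC content the direction was the same, with differences from 15.2 to 32.4 percentage points. Away from start sites a CCAAT box was present in 15.7% of regions, in 20.9% of those at 10% or more (1424 regions) and in 14.9% of those below, with a difference of -0.512 percentage points in the bin of lowest GC and 18.3 in that of highest GC. The GC box was present in 60.9% of start-site regions at 10% or more and 54% of those below.

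The core of the CTCF motif, which marks insulator sites, showed the opposite order away from start sites. It was present in 5.89% of these regions, in 1.62% of those at 10% or more and in 6.54% of those below, and it was less frequent at 10% or more in each of 5 bins of GC content, with differences from -7.01 to -2.08 percentage points. Regions with the core had a median share of 6.25% in run 1 and 2.13% in run 2, beside 8.33% and 4.26% over all regions. RUNX letters away from start sites were found in 26.5% of regions at 10% or more and 21.1% of those below, and EBF1 letters in 14.4% and 11.3%. GGGAA was found in 41.8% and 40.4%, and in 39.4% of all regions. Short letters such as GGGAA occur often, and the share of all regions that hold them is the base for each value. None of these differences was tested, because regions are not replicates.

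Levels also varied along chromosomes over megabases. In each stretch of 5 Mb with at least 20 regions (353 stretches), the mean share was divided by the mean over regions of the same position, GC content and width. This ratio correlated between runs over stretches with r = 0.565. It ranged from 0.66 to 1.51 in run 1 and from 0.594 to 1.75 in run 2. In both runs 14 stretches were at 1.2 or more and 5 were at 0.8 or less. The highest was chromosome 13 from 75 to 80 Mb (1.51 and 1.75), and chromosome 13 also held the stretches from 80 to 85 (1.23 and 1.23), 85 to 90 (1.27 and 1.47), 105 to 110 (1.37 and 1.43) and 110 to 115 Mb (1.26 and 1.26). Chromosome 9 from 10 to 15 Mb stood at 1.42 and 1.41 and chromosome 19 from 60 to 65 Mb at 1.36 and 1.74. Among the lowest were chromosome 11 from 55 to 60 Mb (0.745 and 0.747) and chromosome 8 from 20 to 25 Mb (0.769 and 0.758).

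Pairs of cells shared few of their detected regions. At 1208 counts per cell the Jaccard index, the regions shared by a pair of cells over those seen in either, had a median of 0.0394 within run 1, 0.0411 within run 2 and 0.0391 across runs. Cells in both runs carried 25 capture site names in common. After thinning, 22 pairs of cells across runs had the same name, and their median index was 0.0409.

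The share of counts at start sites ranged from 44.6 to 72.6% over the cells of run 1 (median 50.2%) and from 40.8 to 73.9% in run 2 (median 47.9%). The variance over cells was 21.8 times in run 1 and 23.8 times in run 2 what counting gives. On detected regions alone, where a value of 2 weighs the same as a value of 1, the ratios were 12.5 and 14.5. The cells at capture sites C10 in run 1 (72.6%) and G9 and F2 in run 2 (73.9% and 72.7%) stood highest, far above the medians. Such cells weigh heavily in a variance, and the ratios without them were not computed. G9 was also the shallowest cell, with 395 counts. The start-site share showed little relation to counts per cell (r = -0.053 over 48 cells and -0.0387 over 47), and it rose with the mean GC content of the detected regions (r = 0.905 and 0.874). Without the 2 cells of each run farthest from the median start-site share, the latter were 0.834 and 0.75. Each of these correlations is over cells of a run, which share a library.

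Variance ratios of gene lists lay closer to 1. On detected regions the ratio of observed to counting variance was 0.789 and 0.852 for the marker regions, 0.685 and 0.794 for the pre-B cell receptor list, 0.663 and 0.838 for DNA replication and 1.13 and 1.09 for B-lineage transcription factors. It was 1.22 and 0.748 for cytosolic ribosomal protein genes. On counts the ratios of these lists were higher. They were 1.4 and 1.69 for the marker regions, 1.19 and 1.43 for the pre-B cell receptor list and 0.878 and 1.45 for DNA replication. For B-lineage transcription factors they were 1.83 and 1.96, and for cytosolic ribosomal protein genes 2.48 and 1.21. These lists hold from 33 to 100 regions and little signal per cell, so variation of a modest size may go undetected at this depth. What size could be detected was not tested.

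Signal in the 27 regions that match mitochondrial DNA was a larger part of shallow cells. It ranged from 0.112 to 1.86% of counts in run 1 and from 0 to 3.1% in run 2. It fell with counts per cell in both runs, with r = -0.71 over 48 cells and r = -0.722 over 47 cells, and without the 2 cells farthest from the median depth these were -0.705 and -0.698. Matrix values stop at 2, for a reason the sources do not give, and 8 of the 27 regions had a count in 75% or more of each run's cells. The sum over these 8 is thus bounded, and where it is near its bound its share of counts falls with depth by construction.

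Cells differed in how their signal was spread over chromosomes. For each of the 20 chromosomes (1 to 19 and X), the share of a cell's counts varied more over cells than counting gives, by 3.63 to 10.3 times in run 1 (median 6.59) and 3.22 to 10.3 times in run 2 (median 7.47). On detected regions the ratios were 2.27 to 6.63 and 1.92 to 6.91, above 1 for 20 of 20 chromosomes in each run. Detected regions on a chromosome were then set against the number that the depth of the cell gives. Where at least 20 regions were expected, this ratio ran from 0.372 to 1.85 in run 1 and from 0.159 to 2.66 in run 2. In run 1 the cell at E2 had 104 detected regions on chromosome 10 where 56.1 were expected, and the cell at H1 had 126 on chromosome 13 with 68.1 expected and 20 on chromosome 15 with 50.7 expected. In run 2 the cell at D4 had 66 on chromosome 15 with 24.8 expected and 4 on chromosome 12 with 25.2 expected. The cell at G2 had 13 on chromosome 19 with 56.6 expected.

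**Figure D4:**
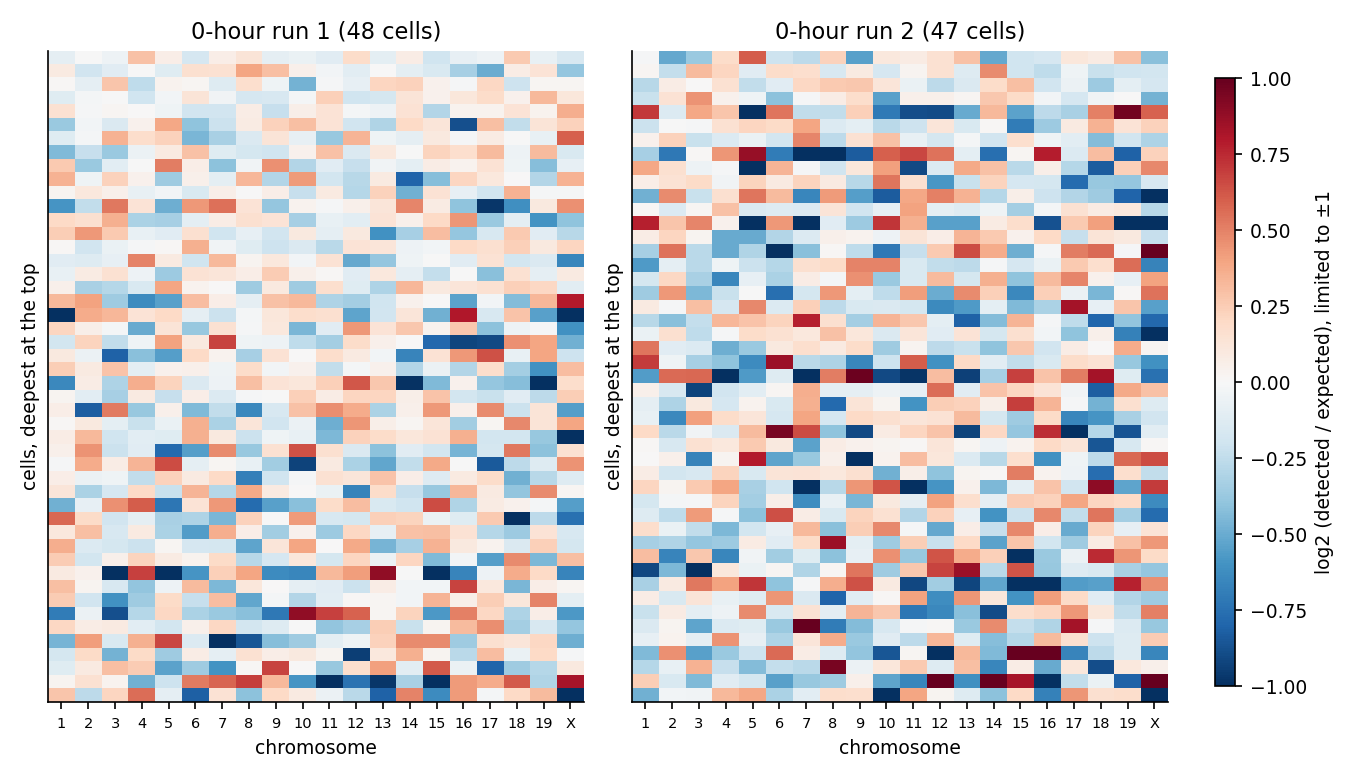
Detected regions on each chromosome (columns) in each cell (rows, deepest at the top) over the number expected from the depth of the cell, on a log2 colour scale limited to -1 and 1, for the 48 cells of run 1 and the 47 cells of run 2. Some rows are nearly even while others have several high and low chromosomes.

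Cells differed in this unevenness. The mean over chromosomes of the squared difference from the expected number, divided by that number, is near 1 where counts vary as a Poisson variable. It ranged from 1.26 to 9.9 over the cells of run 1 (median 3.09) and from 0.708 to 18.8 in run 2 (median 3.06). There were 13 cells in run 1 and 10 in run 2 under 2, and 15 and 14 cells at 5 or more. All 6 cells at 10 or more were in run 2, with C12 at the top. Its relation to depth was weak, with Spearman's rho of 0.163 and 0.21 with counts per cell.

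Both ends of a chromosome moved together in the same cell. Each chromosome was divided at its median region into a proximal and a distal part, and the ratio to the expected number was taken in each part. Over cells the parts of the same chromosome correlated with r from 0.332 to 0.708 in run 1 (median 0.477) and from 0.179 to 0.631 in run 2 (median 0.507). All 20 chromosomes had a positive r in each run. Between parts of different chromosomes the median r was -0.0341 in run 1 and -0.0495 in run 2, with 155 and 145 of 380 above 0. The expected numbers follow the depth of the cell, so an excess on a chromosome goes with a deficit elsewhere. Values slightly below 0 arise from this alone.

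Regions close together were detected in the same cells more often than their shares and the depth of cells give. The ratio of observed to expected co-detections was 2.36 in run 1 and 3.8 in run 2 for the 338 pairs under 300 bp apart. It was 1.31 and 1.57 from 300 bp to 1 kb, and 1.09 and 1.28 from 1 to 3 kb. From 100 kb to 1 Mb it was 1.05 and 1.13, and beyond 10 Mb on the same chromosome 1.02 and 1.05. For pairs on different chromosomes it was 0.999 and 0.996. The expected numbers are scaled to the depth of each cell, so their total equals the observed total. Most pairs lie on different chromosomes, and their ratio is therefore near 1 by construction. The ratio thus fell with distance in both runs and was higher in run 2 at each distance on a chromosome.

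**Figure D5:**
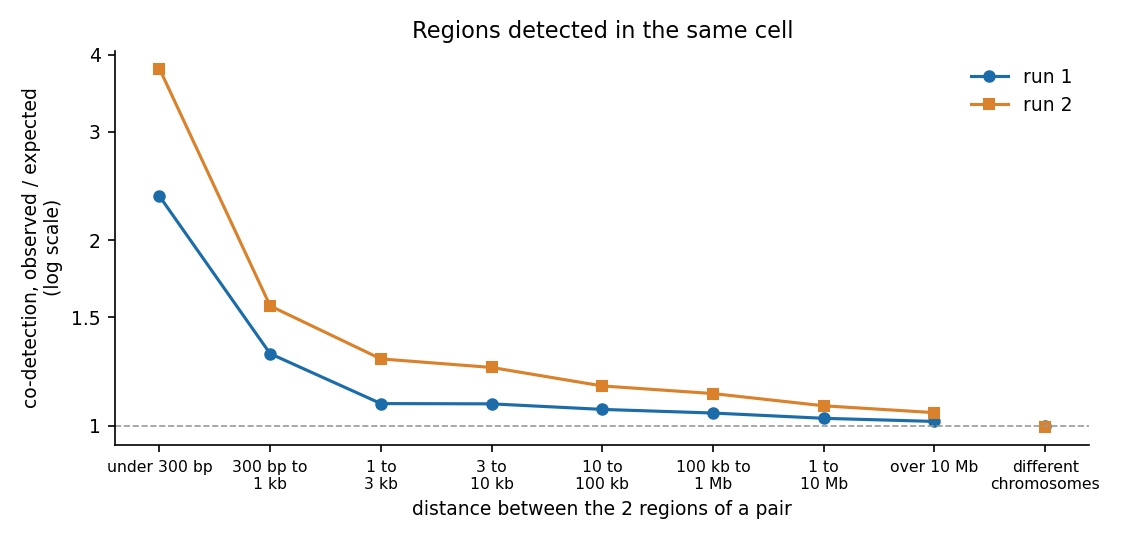
Ratio of observed to expected co-detections in the same cell (y axis, log scale) by the distance between the regions of a pair (x axis), for run 1 (circles) and run 2 (squares), over regions with 1 copy and no mitochondrial match; the dashed line is at 1. The ratio falls from 2.36 and 3.8 under 300 bp to 1.02 and 1.05 beyond 10 Mb. Pairs on different chromosomes stand at 0.999 and 0.996, near 1 by construction.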

How the data were processed

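Per the labels and the study's methods, the authors mapped reads to mm10 with Bowtie2, removed duplicates with Picard, kept libraries with enough fragments and called peaks on bulk replicates of both time-points with HOMER. The sources used here do not say whether cut positions were shifted. The deposited counts per region and cell are whole numbers without normalization and without values above 2. The matrix holds other numbers of regions and of 0-hour cells than the study states, for a reason not given. All per-sample columns were usable, and the bulk samples were not analysed here. No doublet caller was run, and the study inspected each capture site by eye for single cells.

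Shares, intervals at 95%, variance ratios, thinning and correlations were computed in Python 3 with NumPy, pandas and SciPy, without tests, because cells of a run are not replicates and the 0-hour state has 2 runs. The limit of a share of 0 is 3 counts of the total. Each region went to the gene whose start site lay closest to its midpoint, up to 50 kb away, among protein-coding genes (GENCODE vM21). A gene had a single start site, the first base of its annotation on its strand. Regions at start sites of other transcripts can therefore count as exonic, intronic or intergenic. Copies were counted by BLAST at 90% identity over 80% of a region on GRCm38, the build of the files, and mitochondrial matches at an E-value of 1e-05. The variance ratio over chromosomes, the co-detection ratio and the thinning were also run on simulated data, with the outcome not given here. Expected co-detections are the product of region shares scaled by the depth of each cell.

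All regions of the 7 markers were named, with the 10 leading regions near and far from start sites, the 10 genes with most regions at 10%, 4 genes per list and members of lists of other cells at 10% in both runs. Some items under this rule are not reported here. The members and gene lists were chosen with earlier results of these data known. Alternatives were detected against not detected values, thinned cells, left-out repeats, shallow cells or runs, other distances and other windows.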

Additional observations from a re-analysis of the deposited data

How the results depend on the processing

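With values reduced to detected or not, the median signal per cell (mean of both runs) moved from 2342.5 counts to 1517.25, and the variance ratio over chromosomes from 6.9 to 4.28. Thinning moved these to 1208 and 4.44 (4.29 and 4.45 with other random seeds), the median share of the 7 marker genes from 11.5% to 7.11%, the regions at 25% in both runs from 179 to 35 and the correlation between runs from 0.647 to 0.524. Thinned cells hold fewer counts, and 46 and 39 cells were kept. That correlation was 0.601 without regions of more than 1 copy or with a mitochondrial match and 0.632 without the shallowest cells (43 and 42 kept). The variance ratio over chromosomes was 4.1 on regions over 1 kb from a start site. It was 7.2 without the 2 cells of each run with the highest start-site share. Both settings were chosen after the data were seen. The counts at start sites, 49.8%, came to 45.1% within 500 bp, 53.8% within 2 kb and 54.8% with all annotated genes. Regions numbered 3671 at 10%, 20 at 50% and 447 at 25% over all 0-hour cells. GGGAA was found in 28% of windows of 100 bp against 39.4% of 150 bp. Leaving out a run gave 1787 to 2898 counts per cell, 48.5 to 51% at start sites, 10.6 to 16.7% for the marker genes, 6.61 to 7.19 for the variance ratio and 233 to 1444 regions at 25%. The remaining alternatives moved their value by less than the spread between runs, or kept counts within 1.5 times. No paired analysis was possible because no result comes from a test between groups. The runs differed in depth. At equal counts the median regions per cell were 1035 and 942, but thinning turns more values of 2 into 1 in deeper cells. These medians therefore do not show a difference apart from depth. The part of depth in the differences between runs was not tested.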
